A study of Mus musculus with 2 samples.

Results

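The regions described here are the autosomal megabases of the mouse genome with most CTCF peaks in embryonic stem (ES) cells and mouse embryonic fibroblasts (MEFs). Chromosomes 1 to 19 were divided into 1 Mb windows from base 1, and windows holding 100 or more peaks of both cell types together were kept. This left 101 of the 2406 autosomal windows with a peak, or 4.20%. Their 12111 peaks, 6076 from ES cells and 6035 from MEFs, are the members, out of 98160 peaks in all. They make up 12.6% of the 95743 autosomal peaks. The windows were chosen by their peak numbers in both lists, so their density is a description and not a result.

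CTCF is a zinc-finger protein that binds DNA at a long, well-conserved motif. It is known for insulators that separate enhancers from genes, for the imprinted control regions it binds in an allele-specific way, and for the borders of chromatin loops, where it halts the cohesin ring. Binding sites are known to be frequent in gene-rich chromatin and scarce in gene deserts. ES cells are pluripotent cells taken from the early embryo, whereas MEFs are differentiated cells of the embryo's connective tissue.

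Binding was mapped by chromatin immunoprecipitation and sequencing (ChIP-seq), with 1 library per cell type and the same Millipore CTCF antibody in both. The ES cells have the genetic background Bl3.10 and C57BL, and the MEFs C57BL6, so effects of genetic background, cell type and library cannot be told apart. The labels name no other treatment or allele, and no line, passage or pooling of preparations. The ES list holds 44424 peaks and the MEF list 53736. Read depth is unknown, an input background was not analysed here, and there are no replicates. Every interval below covers counting error only.

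Dense windows lay on 17 of the 19 autosomes. Chromosome 11 held most of them, 17 windows with 2187 peaks, which were 30.6% of all peaks on that chromosome. Chromosome 17 followed by share, with 9 windows and 26.4% of its peaks, and then chromosome 4, with 11 windows and 20.05%. Chromosomes 2 and 7 had 10 dense windows each, chromosome 5 had 9, and chromosomes 8 and 15 had 6 each. Chromosomes 1, 10 and 19 had 4 each, chromosomes 3 and 9 had 3 each, and chromosome 18 had 2. Chromosomes 6, 14 and 16 had a single window each. Chromosomes 12 and 13 had none, and their fullest windows held 98 and 94 peaks.

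**Figure D1:**
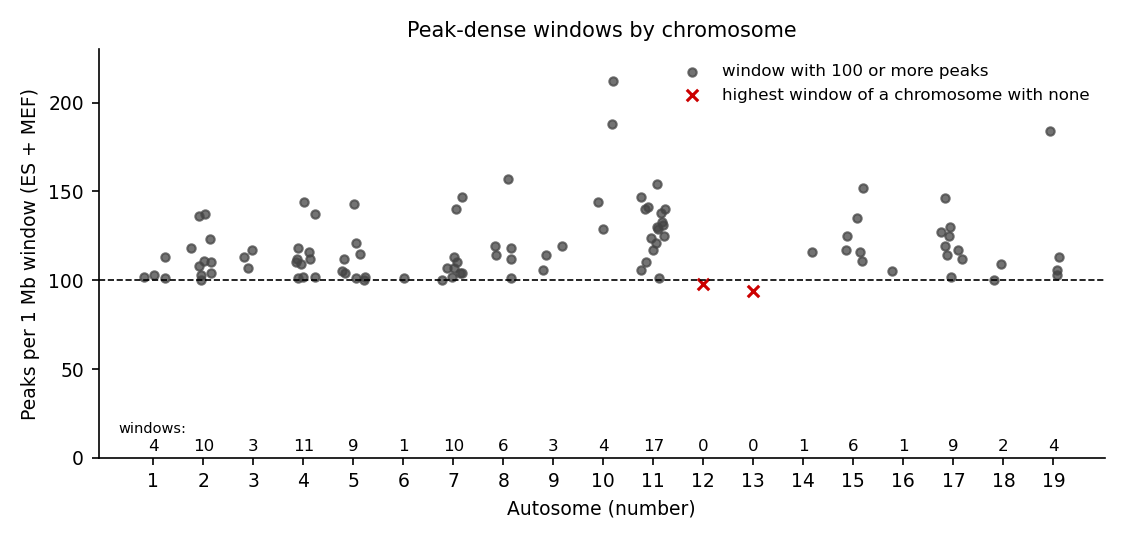
Each point is a 1 Mb window with 100 or more peaks, by autosome (x axis) and number of ES and MEF peaks together (y axis), with the number of such windows written above the axis and crosses for the fullest window of chromosomes without any. Chromosome 11 has 17 windows between 101 and 154 peaks, and the 3 highest points, at 212, 188 and 184, are on chromosomes 10 and 19.

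The number of peaks per dense window ran from 100 to 212, with a median of 114 (quartiles 106 and 129), against a median of 33 over all autosomal windows with a peak. ES peaks ranged from 43 to 109 per window and MEF peaks from 40 to 103. The fullest window, on chromosome 10 from 80000001 to 81000000, held 109 peaks from ES cells and 103 from MEFs, at 156 separate sites. The window before it, from 79000001 to 80000000, had fewer ES peaks, 85, and the same 103 MEF peaks. The window on chromosome 19 that begins at 5000001 held 184 peaks, 82 of them from ES cells. These 3 windows stood apart from the rest, since the next fullest, on chromosome 8 from 87000001 to 88000000, held 157 peaks.

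At the threshold, the windows just inside and just outside held similar numbers by construction. The 16 windows with 100 peaks or up to 2 more had 799 peaks from ES cells and 819 from MEFs. The 18 windows with 97 to 99 peaks had 868 and 896. A MEF partner was found for 38.9% of ES peaks in the former and 29.1% in the latter, and an ES partner for 37.6% and 29.02% of MEF peaks. Over all autosomal windows such partners, overlapping by at least 1 bp and called shared here, were found for 26.2% of ES and 21.9% of MEF peaks. The windows just inside thus held more shared peaks than those just outside. The rule counts a shared site once in each list, so at equal numbers of sites a window with more shared sites reaches 100 sooner. How far this bears on the difference was not tested.

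Dense windows adjoined each other more often than not. Of the 101 windows, 67 lay in 27 runs of adjoining dense windows and 34 stood alone. There were 19 runs of 2 windows, 4 of 3, 3 of 4 and 1 of 5. The longest run was on chromosome 11 from 94000001 to 99000000, with 659 peaks, 318 from ES cells (117 shared) and 341 from MEFs (111 shared). Another 3 windows, from 100000001 to 103000000 on the same chromosome, held 388 peaks. The window between these runs and the window before the longest run were much sparser, with 47 and 42 peaks.

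The runs of 4 windows were on chromosomes 2, 4 and 17. That on chromosome 17 from 26000001 to 30000000 held 486 peaks, with 260 from ES cells and 226 from MEFs. That on chromosome 2 from 29000001 to 33000000 held 450, with 217 from ES cells. That on chromosome 4 from 132000001 to 136000000 held 435, with 222 from ES cells. Runs of 3 windows lay on chromosome 5 from 135000001 to 138000000 (336 peaks), on chromosome 8 from 123000001 to 126000000 (344 peaks) and on chromosome 11 from 115000001 to 118000000 (351 peaks), besides the run from 100000001 given above.

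Runs of 2 windows are named here by their first base and their peaks. On chromosome 2 they began at 164000001 (234 peaks) and 167000001 (240 peaks), and on chromosome 5 at 114000001 (245 peaks) and 122000001 (213 peaks). On chromosome 7 they began at 28000001 (244 peaks) and 133000001 (220 peaks). The fullest of them was on chromosome 10 at 79000001, with 400 peaks, and that chromosome had another at 126000001, with 273. Chromosome 15 had runs at 78000001 (260 peaks) and 98000001 (233 peaks). Single runs of 2 lay on chromosome 1 at 133000001 (203 peaks), chromosome 3 at 88000001 (224 peaks), chromosome 4 at 140000001 (239 peaks), chromosome 8 at 86000001 (258 peaks), chromosome 9 at 107000001 (225 peaks) and chromosome 11 at 119000001 (254 peaks). The last ones were on chromosome 17 at 34000001 (263 peaks), chromosome 18 at 35000001 (209 peaks) and chromosome 19 at 4000001 (287 peaks).

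Of the windows that stood alone, those with most peaks were on chromosome 11 from 69000001 (154 peaks), chromosome 15 from 76000001 (152 peaks), chromosomes 7 and 11 from 52000001 and 3000001 (147 peaks each) and chromosome 4 from 151000001 (144 peaks). The other lone windows began on chromosome 1 at 88000001 and 137000001, on chromosome 2 at 25000001 and 152000001, on chromosome 3 at 96000001, and on chromosome 4 at 116000001, 138000001, 149000001 and 154000001. On chromosomes 5 to 7 they began at 36000001 and 144000001, at 124000001, and at 17000001, 19000001, 25000001, 31000001 and 148000001. Chromosomes 8 and 9 had lone windows at 73000001 and 44000001, and chromosome 11 at 75000001 and 77000001. The remaining ones were on chromosome 14 at 55000001, chromosome 15 at 102000001, chromosome 16 at 4000001, chromosome 17 at 45000001, 47000001 and 56000001, and chromosome 19 at 10000001 and 45000001.

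The surroundings of dense windows were also rich in peaks, with exceptions. The 110 adjoining windows with at least 1 and fewer than 100 peaks held a median of 70 (quartiles 49 and 85.8). Of them, 74 held 60 or more peaks, and 12 held fewer than the autosomal median of 33. The run of 400 peaks on chromosome 10 had sharp edges, since the windows before and after held 22 and 30 peaks.

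The cell types contributed equally to dense windows, although the MEF list was the longer one. For each ES peak there were 0.993 MEF peaks (95% interval 0.958 to 1.03), against 1.23 (1.22 to 1.250) in the other autosomal windows. Windows with 60 to 99 peaks came close to equality at 1.05 (1.03 to 1.07). The value was 1.26 (1.23 to 1.28) with 30 to 59 and 1.57 (1.53 to 1.62) below 30. Choosing windows by 1 list pulls the ratio toward that list, so both choices were made. The 106 windows with most ES peaks had a ratio of 0.921, and the 104 windows with most MEF peaks 1.07, and both lay below the ratio of 1.20 over all autosomal windows. When only as many of the highest-scoring MEF peaks were kept as there are ES peaks, the ratio in the 101 windows was 0.810.

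Single windows varied in which cell type had more peaks, but departures from the autosomal MEF share beyond counting error went only toward ES cells. ES peaks outnumbered MEF peaks in 50 of the 101 dense windows, compared with 23.2% of all autosomal windows, MEF peaks were more numerous in 46 and the numbers were equal in 5. The lowest MEF share was 38.5% (29.7 to 48.1), on chromosome 2 from 168000001 to 169000000, with 64 ES and 40 MEF peaks. The highest was 58.1% (48.5 to 67.1), on chromosome 16 from 4000001 to 5000000, with 44 ES and 61 MEF peaks. In 15 windows the interval lay wholly below the autosomal MEF share of 54.5%, and in 0 wholly above it.

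Peaks in dense windows were shared between the cell types more often than elsewhere. Of the 6076 ES peaks, 2176 overlapped a MEF peak, which is 35.8% (34.6 to 37.0) against 26.2% of all autosomal ES peaks. Of the 6035 MEF peaks, 2146 overlapped an ES peak, which is 35.6% (34.4 to 36.8) against 21.9% of all autosomal MEF peaks. Compared with the other autosomal windows, the shared percentage was higher by 11.1 points in ES cells (9.87 to 12.4) and by 15.5 points in MEFs (14.2 to 16.7). Both differences exceed counting error, but the rule counts a shared site in both lists. The shared percentage is therefore not independent of the choice of windows. No replicate library allows a test across cultures.

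The shared percentage followed density step by step. It was 15.0% of ES and 9.61% of MEF peaks in windows below 30 peaks, 24.8% and 19.8% with 30 to 59, and 29.2% and 27.9% with 60 to 99. The ES percentage was the higher in each of these groups, and in dense windows the lists drew level. Shared peaks were nearly equal in number in both lists in each group, for example 1059 (ES) and 1069 (MEF) below 30 peaks. The difference between the lists thus restates their ratio of peak numbers and is not a separate result. Since the rule counts shared sites in both lists, windows were also ranked by merged sites, where overlapping peaks of both lists count once. The 101 windows with most sites shared 33.7% of ES and 33.4% of MEF peaks, beside 26.2% and 21.9% over all autosomal windows. The percentage in the windows outside that ranking was not computed. The dense windows shared a larger percentage than the rest of their own chromosome on 17 of 17 chromosomes in either list. These are the windows chosen by the count of both lists, so this tally gives no independent support.

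Close packing alone raises chance overlap, so the other list was moved as a whole by 10 kb and overlaps were counted again. In dense windows 5.71% (5.16 to 6.32) still overlapped among ES peaks and 5.47% (4.92 to 6.07) among MEF peaks. In the other autosomal windows these values were 2.82% and 2.30%. The percentage above this chance level was 30.1 points for either list in dense windows, and 21.8 (ES) and 17.8 (MEF) points elsewhere. As a multiple of chance the order was the opposite. Observed overlap was 6.27 times (ES) and 6.50 times (MEF) the moved value in dense windows and 8.74 and 8.75 times elsewhere.

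Overlap fell with the distance of the move in steps of unequal size. With the mean taken over both directions, 35.05% of ES peaks in dense windows overlapped after a move of 0.25 kb, which is less than the width of a peak, and 13.0% after 0.5 kb. It was 9.53% after 1 kb, 6.65% after 5 kb and 4.96% after 20 kb, and it still stood at 4.15% after 500 kb. In the other windows the values at 0.5, 20 and 500 kb were 7.24%, 2.44% and 2.06%. In both kinds of window most of the decline beyond the width of a peak thus took place within the first 20 kb.

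**Figure D2:**
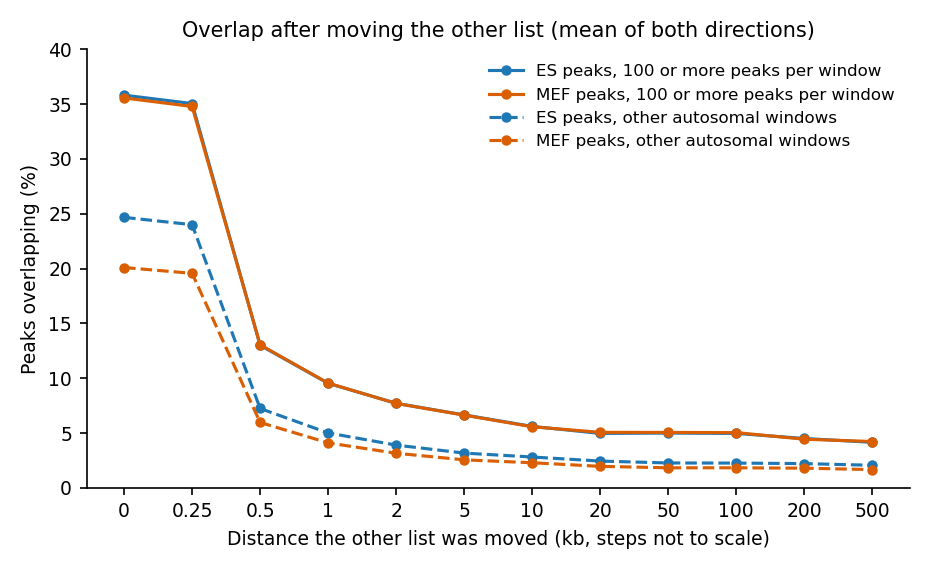
Percentage of ES and MEF peaks (y axis) that overlap a peak of the other list after that list was moved by the distance on the x axis (kb, steps not to scale), for dense windows (solid) and the other autosomal windows (dashed). The solid lines start at 35.8% and 35.6% and end at 4.15% and 4.23%, above the dashed lines at each distance.

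Partners were closely aligned. Shared ES peaks of dense windows were offset from their partner by a median of 47 bp (quartiles 21 and 120), against 44 bp (20 and 104) elsewhere. Of the shared ES peaks in dense windows, 70.5% lay within 100 bp of their partner, against 74.2% elsewhere.

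Single windows varied widely in sharing. Over the 101 windows the shared percentage of ES peaks ran from 17.2% to 57.3% (median 35.4%), and that of MEF peaks from 21.3% to 54.5% (median 36.2%). The ES value was above the autosomal percentage in 92 windows and the MEF value in 100, in windows whose choice counted shared sites in both lists. Observed overlap exceeded the moved overlap in all 101 windows for either list. Highest for ES peaks was chromosome 19 from 5000001 to 6000000, where 47 of 82 peaks were shared (57.3%, 46.5 to 67.5). Lowest was chromosome 2 from 168000001 to 169000000, with 11 of 64 (17.2%, 9.88 to 28.2), which was also the window with the lowest MEF share of peaks.

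High score ranks were more frequent in dense windows than in the other autosomal windows together, but in ES cells not once chains of close sites were left out. The score is not defined, so a high rank need not mean strong binding. Of the ES peaks, 698 were among the highest-scoring 10% of their own list (11.5%, 10.7 to 12.3), against 10.2% of all autosomal ES peaks. Of the MEF peaks, 833 were among the highest-scoring 10% of their own list (13.8%, 13.0 to 14.7), against 10.4% of all autosomal MEF peaks. The difference from the other autosomal windows was 1.52 points in ES cells (0.686 to 2.40) and 3.89 points in MEFs (2.999 to 4.82). Whether the cell types differ in this was not tested. Without the chains of 5 or more sites within 5 kb of each other, described below, the ES value in dense windows was 10.2% (9.35 to 11.03), no higher than over all autosomal windows, and the MEF value was 12.5% (11.6 to 13.5). The interval of that MEF value includes the 12.2% of windows with 60 to 99 peaks. Leaving out chains was chosen after seeing the data, and chains elsewhere were kept.

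Middle and low ranks went the other way in ES cells. The median ES peak of dense windows had a score at or above that of 48.1% of its list, against 51.3% in the other windows. The lowest-scoring 10% of the ES list supplied 11.2% of ES peaks in dense windows (10.4 to 12.0) and 9.26% elsewhere. For MEF peaks the median rank was 52.1% against 50.3%, and the lowest-scoring 10% supplied 10.1% against 9.62%. With chains included, ES peaks of dense windows were thus more frequent at both ends of the score range, and MEF peaks mainly at the upper end.

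Sharing was higher in dense windows in each of 10 score classes of either list, so it differed among peaks of like rank as well. As above, the choice of windows is not independent of sharing. In the highest-scoring 10% of the ES list 63.3% of peaks in dense windows were shared (59.7 to 66.8), against 47.1% elsewhere (45.5 to 48.7). In the lowest 10% the values were 29.8% (26.4 to 33.3) and 23.3% (21.9 to 24.7). For the highest-scoring 10% among MEF peaks they were 69.1% (65.9 to 72.2) and 52.2% (50.7 to 53.6), and for the lowest 23.2% (20.04 to 26.7) and 14.1% (13.1 to 15.1). The overlap after a 10 kb move was also higher in the highest class of ES peaks, 7.59%, than in the lowest, 4.27%. Between them it was uneven, with 3.89% in class 5 and 7.02% in class 7, class 1 being the highest. For MEF peaks it was 5.04% in the highest and 6.10% in the lowest class.

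**Figure D3:**
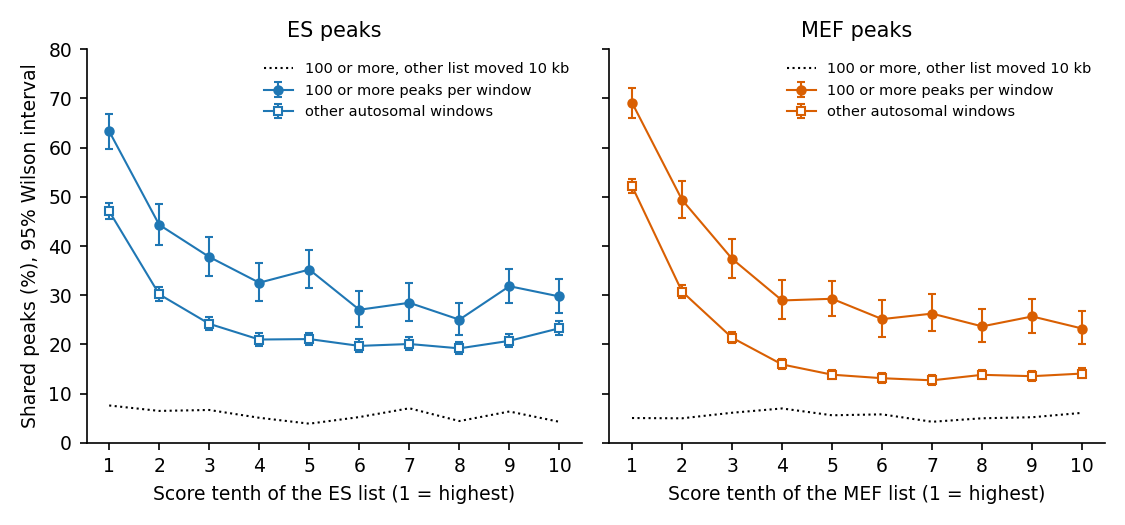
Shared percentage (y axis, bars are 95% Wilson intervals) by score class, each holding about 10% of the ES list (left) or the MEF list (right), 1 being the highest, for dense windows (filled) and the other autosomal windows (open), with the overlap after a 10 kb move dotted. The filled points lie above the open points in each class, from 63.3% against 47.1% in the highest ES class to 29.8% against 23.3% in the lowest.

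Shared peaks in dense windows ranked above cell-type-only peaks of the same windows. The median rank was 59.2% for shared and 42.7% for ES-only peaks, and 72.0% for shared and 44.8% for MEF-only peaks. The other autosomal windows had the same order, with 61.0% and 48.1% in the ES list and 72.0% and 46.7% in the MEF list. Ranks of partners went together weakly. Spearman's rho was 0.17 over the 2176 shared ES peaks and their nearest MEF peaks, and 0.18 elsewhere. These peaks share libraries and windows and are not replicates. Of the 442 shared ES peaks in the highest-scoring 10%, 170 had a partner of the same standing in the MEF list. Elsewhere it was 679 of 1757, a similar proportion.

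Peaks with a close neighbour in their own list were more common in dense windows and were shared more often. Such neighbours become more common with density itself, which the rule fixed. Overlapping peaks of a list count as neighbours here, and 1 partner can mark both as shared. Of ES peaks 21.0% had another ES peak within 1 kb, against 10.5% elsewhere, and of MEF peaks 19.8%, against 10.3%. Those ES peaks were shared at 53.2% (50.5 to 55.9) in dense windows and at 44.7% (43.1 to 46.2) elsewhere. ES peaks without such a neighbour were shared at 31.2% (29.9 to 32.5) and 22.3% (21.9 to 22.8). For MEF peaks without one the values were 31.7% (30.4 to 33.0) and 17.9% (17.5 to 18.2). The higher sharing in dense windows was thus present among solitary peaks as well.

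Spacing inside dense windows was uneven. Peaks of both lists formed 9551 merged sites, of which 1953 (20.4%) held peaks of both cell types, against 11.9% of sites elsewhere. From the start of a site to the start of the next was a median of 6.08 kb (quartiles 2.26 and 13.3 kb) and the mean was 10.3 kb. It was 9.12 kb in windows of 60 to 99 peaks and 14.6 kb in all other autosomal windows together. Neighbours within 1 kb made up 10.2% of distances, and those within 5 kb 44.4%. The median was 0.59 times the mean in dense windows and in each of the next groups, with 60 to 99 and 30 to 59 peaks. The relative spread, SD over mean, was 1.27 in dense windows and 1.21 and 1.22 in these groups. By these measures the relative unevenness of spacing differed little between the groups.

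When each dense window was cut into 50 kb bins, 78 of 2020 bins (3.86%) held no peak. The fullest bin of a window held between 9 and 38 peaks (median 15). The fullest bin of all was on chromosome 11 from 94800001 to 94850000. The longest stretch without a site inside a window ran from 34.0 to 290 kb (median 64.8 kb).

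A part of the peaks came in tight chains, defined here as sites that follow each other within 5 kb. Chains of 5 or more sites numbered 248 and held 1556 sites, or 16.3% of the sites in dense windows. In them the shared percentage was 45.3% for ES peaks (42.4 to 48.2) and 46.8% for MEF peaks (43.9 to 49.8), against 33.7% (32.4 to 35.01) and 33.1% (31.8 to 34.4) for the other peaks of dense windows. After a move of 10 kb the overlap was 9.96% and 8.81% inside chains and 4.76% and 4.74% outside.

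The chain with most sites was on chromosome 11 from 94797428 to 94815666, with 21 sites in 18.2 kb. ES cells gave 18 of its peaks, 14 of them shared, and MEFs 22. As background from general knowledge of the mouse map, this is the place of Col1a1, which encodes a chain of type I collagen, the main fibre protein of connective tissue. An input library was not analysed here, so the background level along this stretch is unknown.

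Chains of 20 and 19 sites lay side by side near the start of chromosome 11, from 3063810 to 3098699 and from 3023144 to 3058034. The first had 14 peaks from ES cells, 6 of them shared, and 12 from MEFs. The second had 16 from ES cells, 8 of them shared, and 13 from MEFs. The chains had almost the same span, 34.89 and 34.891 kb, and the window before theirs held 0 peaks. No sequences were read, and why the spans match was not tested. Without an input library their background level is unknown too. A chain of 18 sites on chromosome 11 from 96635923 to 96673720 was nearly free of shared peaks, with 1 of 9 ES peaks overlapping a MEF peak and 10 MEF peaks in all. On chromosome 15 from 102300554 to 102336199, a chain of 15 sites had 14 peaks from ES cells, 10 of them shared, and 13 from MEFs.

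**Figure D4:**
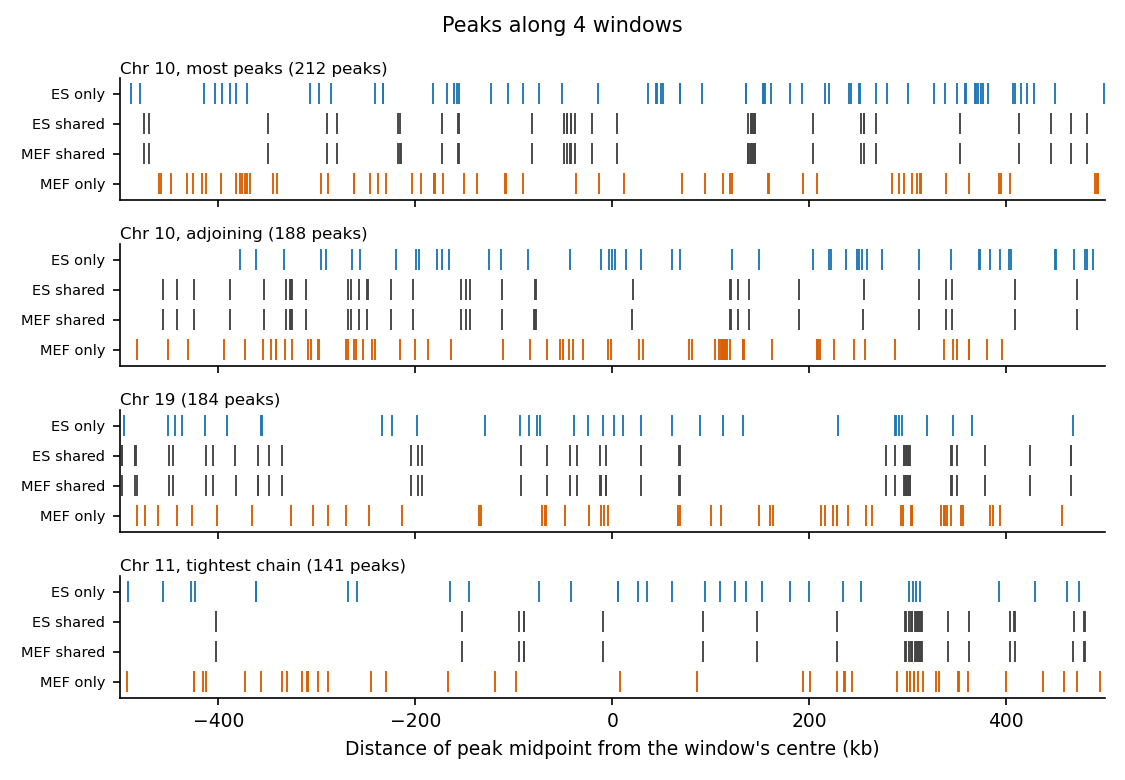
Each tick is a peak at its distance from the window's centre (x axis, kb), in rows for ES-only, shared and MEF-only peaks, for the 3 windows with most peaks and the chromosome 11 window with the chain of 21 sites. The chain stands out as a block of shared ticks, with ES-only and MEF-only ticks among them, to the right of the centre in the bottom panel, whereas ES-only and MEF-only ticks are mixed along the other panels.

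Cell-type-only peaks in dense windows lay close to the other list without touching it. The 3900 ES-only peaks were a median of 5.01 kb from the nearest MEF peak (quartiles 1.92 and 10.99 kb), against 12.1 kb elsewhere. The 3889 MEF-only peaks were a median of 5.23 kb from the nearest ES peak, against 17.1 kb elsewhere. Within 2 kb of the other list lay 25.9% of ES-only and 25.2% of MEF-only peaks, and 10.8% and 12.2% lay farther than 20 kb from it. Such distances shrink with density itself, which the rule fixed.

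ES-only and MEF-only peaks were mixed along dense windows as in a random order. Neighbouring cell-type-only peaks were read in sequence, skipping shared peaks and leaving out pairs closer than the width of a peak, which only peaks of the same list can be. Of 7536 such pairs, 3730 changed from one cell type to the other, which is 49.5% (48.4 to 50.6). A random order of the same peaks within each window gives 49.7%. With the closer pairs kept, 48.5% changed (47.4 to 49.6), which lies below random order. In the other autosomal windows 47.7% of pairs changed (47.3 to 48.1), and a random order gives 48.2%. The difference from random order was -0.25 points in dense windows, within counting error, and -0.47 points elsewhere, where the interval excludes random order narrowly. Elsewhere there were 62120 pairs, so that interval is narrower. The interval in dense windows would also cover a difference of -0.47 points. In windows with 60 to 99 peaks the difference was -0.36 points, within counting error.

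At each distance between neighbours in dense windows the change of type was within counting error of random order. The change of type occurred in 50.3% of pairs closer than 1 kb (46.1 to 54.4), 50.3% at 1 to 5 kb (48.2 to 52.4), 49.0% at 5 to 20 kb (47.3 to 50.7) and 49.1% at 20 kb or more (46.6 to 51.6). Pairs with a shared peak between them changed at 49.9% (47.3 to 52.4), and pairs without at 49.4% (48.2 to 50.7). The interval of each group included its random-order value, which lay between 49.7% and 49.8%.

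**Figure D5:**
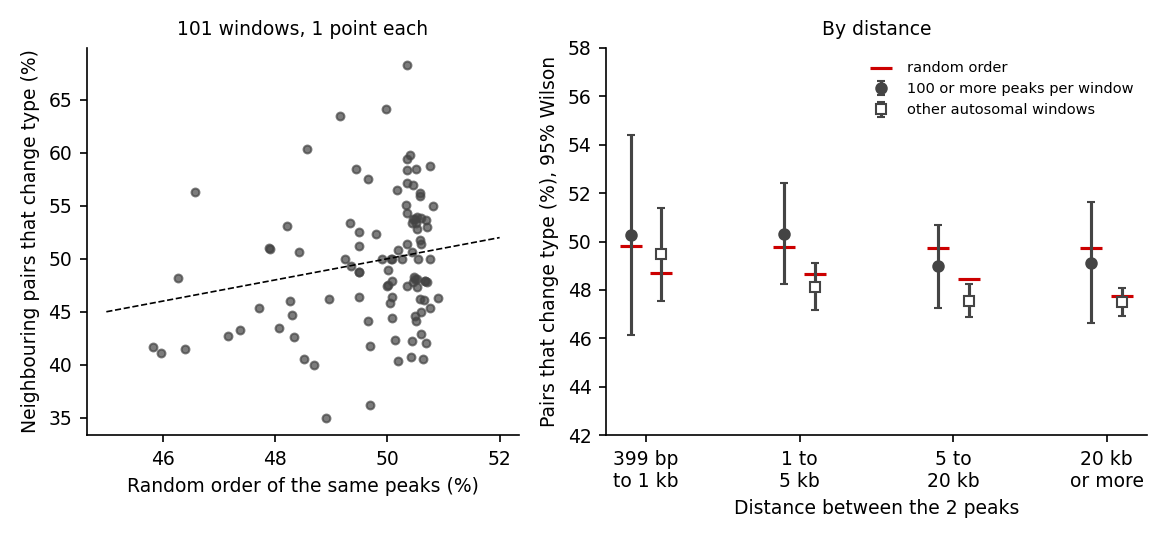
Left, percentage of neighbouring cell-type-only peaks that change type in each of the 101 dense windows (y axis) against the value for a random order of the same peaks (x axis, dashed line of equality). Right, the same percentage by distance between the neighbours for dense and other autosomal windows, with 95% Wilson intervals and random order in red; in dense windows the points run from 49.0% to 50.3% around red marks between 49.7% and 49.8%.

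Windows scattered to both sides of random order, 56 below it and 45 above. The most frequent change was on chromosome 8 from 86000001 to 87000000, where 43 of 63 pairs changed (68.3%, random order 50.3%). The least frequent, relative to random order, was on chromosome 5 from 36000001 to 37000000, with 21 of 60 pairs, where random order gives 48.9%. In the fullest window, on chromosome 10 from 80000001, 50 of 124 pairs changed (40.3%, random order 50.2%). These are the extremes and 1 named window among 101.

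Stretches of peaks of a single cell type were correspondingly short. With overlapping peaks of a list counted once, there were 1905 ES-only stretches with a mean length of 2.005 peaks and as many MEF-only stretches with a mean of 1.98. Just over 50% of each were single peaks (50.6% and 50.8%). Stretches of 5 or more numbered 126 for ES cells and 119 for MEFs. The longest ES-only stretch had 13 peaks over 177 kb, on chromosome 5 from 135610962 to 135787937, with 1 shared ES peak in between. The longest MEF-only stretch also had 13 peaks, over 125 kb on chromosome 4 from 132640879 to 132766127, with 0 shared MEF peaks in between.

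The highest-scoring peaks of dense windows were common to both cell types. Top of both was a peak on chromosome 9 at 44924934 to 44925332, identical in position in both lists. It was number 36 of the ES list and number 31 of the MEF list. Next in both came a peak in the chain of 21 sites on chromosome 11, at 94813850 to 94814248 in ES cells (number 68) and 97 bp further on in MEFs (number 51). The third shared ES peak was on chromosome 8 at 125951592 to 125951990 (number 77), with a MEF partner at number 91. The third shared MEF peak, on chromosome 11 at 94812949 to 94813347 (number 69), belonged to the same chain of 21 sites, and its ES partner was number 87.

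Of the 6 highest cell-type-only peaks named here, 5 had a neighbour in the other list within 2 kb. Among all cell-type-only peaks of dense windows, 25.9% of ES-only and 25.2% of MEF-only peaks had one. For ES cells they were on chromosome 17 at 35971908 to 35972306 (number 95 of the ES list), with a MEF peak 463 bp away at number 186, on chromosome 4 at 151547118 to 151547516 (number 126) and on chromosome 3 at 88271038 to 88271436 (number 136). The nearest MEF peaks of the latter were 1.48 and 1.03 kb away. For MEFs they were on chromosome 19 at 5727749 to 5728147 (number 138), 1.57 kb from an ES peak, on chromosome 11 at 95510157 to 95510555 (number 193) and on chromosome 8 at 86710324 to 86710722 (number 218), 980 bp from an ES peak. The chromosome 11 peak was the exception, 15.3 kb from the nearest ES peak. The chromosome 17 peak would count as shared if midpoints within 500 bp sufficed.

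The highest ranks of each list were more often found in dense windows than peaks in general were when the first 1000 or so were counted, but not for the first 100. Of the 1003 highest-scoring ES peaks (ties included) 19.6% lay in dense windows (17.3 to 22.2), against 13.7% of the whole ES list. For the 1012 highest MEF peaks the value was 16.4% (14.2 to 18.8), against 11.2%. Among the highest 100 ES and 101 MEF peaks it was 13.0% (7.76 to 21.0) and 9.90% (5.47 to 17.3), intervals that include the whole-list values.

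Several dense windows coincide with well-studied loci. Their places on the mm9 map are given from general knowledge, and each gene's chromosome was checked in a RefSeq gene table of another build, GRCm38.p6. These windows were picked for their genes after the values were seen. On chromosome 11 the window from 94000001, which holds Col1a1, had 65 ES peaks (31 shared) and 76 MEF peaks (30 shared). The window from 96000001, which holds the Hoxb cluster of body-axis transcription factors, had 64 ES peaks (26 shared) and 66 MEF peaks (23 shared). The window from 69000001, with the tumour suppressor gene Trp53, had 77 peaks of each cell type, 25 and 23 of them shared.

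On chromosome 15 the window from 102000001, with the Hoxc cluster, had 57 ES peaks (23 shared) and 54 MEF peaks (24 shared). On chromosome 17 the windows from 34000001 and 35000001 cover part of the major histocompatibility complex, with H2-Ab1, a class II antigen presentation gene, in the first and Pou5f1, which encodes the pluripotency factor Oct4, in the second. They held 66 ES and 51 MEF peaks, and 72 ES and 74 MEF peaks. The window around Pou5f1 thus held nearly equal numbers in both cell types.

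The windows with the strongest lean to ES cells on chromosome 17 were those from 27000001, which holds Hmga1, a chromatin-binding protein gene, and Grm4, a glutamate receptor gene, and from 29000001, with the cell-cycle inhibitor gene Cdkn1a. The first held 73 ES and 46 MEF peaks, a MEF share of 38.7% (30.4 to 47.6), and the second 75 and 50. On chromosome 19 the window from 5000001, with the nuclear long noncoding RNA genes Malat1 and Neat1, had the most MEF peaks of high rank. The highest-scoring 10% of MEF peaks had 27 members there, the largest number in any of the 101 windows. This is a count, and the window was also among the richest in MEF peaks of any rank. Only the chromosome 10 windows from 79000001 and 80000001, with 103 each, held more. The proportion of such high-ranking peaks was larger on chromosome 8 from 125000001, at 17 of 59 MEF peaks. The fullest 50 kb bin of the chromosome 19 window, from 5750001 to 5800000, held 30 peaks.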

How the data were processed

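The data are 2 lists of CTCF peaks, 1 library per cell type, on mm9 per the submitters' processing notes. The authors deposited a whole-number score for each peak. It is not defined in the labels or the files and served only for ranks within its own list. The sources used here do not give the aligner, peak caller, threshold, input control or depth. Every peak has the same width, and starts are printed counting from 1.

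Windows, members and lists were chosen with earlier results of these data known. Peaks were assigned to windows by midpoint, and shared means an overlap of at least 1 bp with a peak of the other list. The counts were checked with bedtools 2.31.1, and the code was tested on simulated data. Chance overlap was read after the whole other list had been moved by 10 kb. The order of cell-type-only peaks was compared with the share of changes that their numbers in each window give for a random order, by formula. Intervals are 95% Wilson or, for ratios of peak numbers, exact binomial. For differences of percentages they were built from the Wilson intervals. They cover counting error only and treat peaks as independent, and no p-value was computed.

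Named in full are the 3 windows with most peaks, the longest run, the extremes of each measure, the windows at the threshold, and the 3 highest-scoring shared and cell-type-only peaks of each list. Calculations used pandas 2.3.3, numpy 2.4.6 and scipy 1.17.1, and plots matplotlib 3.10.9, under Python 3.11.15. No genome of the mm9 build was used here, so no sequences were read.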

Additional observations from a re-analysis of the deposited data

How the results depend on the processing

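Alternatives gave 113 values, of which 39 left the counting interval of the reported value (or, for the number of windows, differed by over 1.5 times) and 74 did not; 30 values came from alternatives chosen after seeing the data. The alternation of cell-type-only peaks stayed within its interval under each alternative run. With all neighbouring pairs kept, however, it was 48.5% (47.4 to 49.6), and that interval excludes the random-order value of 49.7%. The threshold set the number of windows, 156 at 90 peaks and 35 at 120, and 64 were left after shortening the MEF list, by score, to as many peaks as the ES list and counting windows again (its other values are for the 101 windows). Shared ES and MEF peaks were 33.9% and 33.9% at 90 peaks and 38.1% and 37.0% at 120. They were 30.6% and 30.8% with a reciprocal overlap of 50%, 37.6% and 37.4% with midpoints within 500 bp, 32.0% and 29.4% in the higher-scoring 50% of each list, and 31.9% and 38.1% with the shortened MEF list. Merging overlapping peaks of a list gave 34.5% for ES peaks. Among alternatives chosen after seeing the data, ranking windows by merged sites gave 33.7% and 33.4%, leaving out chains of 5 or more sites gave 33.7% and 33.1%, ranking by ES peaks alone gave 33.2% for ES peaks, and ranking by MEF peaks alone gave 34.0% for MEF peaks. The overlap after a move was 3.06% (ES) and 2.63% (MEF) with a reciprocal overlap of 50%, 7.14% (ES) at 120 peaks, 4.95% (ES) after a move of 20 kb and 4.81% (MEF) after 50 kb. The highest-scoring 10% made up 16.9% of MEF peaks with the shortened MEF list, and 10.2% (ES) and 12.5% (MEF) of peaks without the chains, where the ES value no longer exceeded that of all autosomal windows. The MEF to ES ratio was 1.08 in the higher-scoring 50%, 0.810 with the shortened MEF list, and 0.921 and 1.07 with windows ranked by ES or by MEF peaks alone. The median site spacing was 6.45 kb at 90 peaks, 5.32 kb at 120, 5.83 kb in windows of 500 kb, 11.4 kb in the higher-scoring 50% and 6.61 kb with the shortened MEF list. Where fewer peaks or other windows entered, that is the construction of the alternative; otherwise the cause was not tested. No paired analysis was possible because there is 1 library of each kind. What the unknown depth limits was not tested.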

Other observations

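Peak-free stretches inside dense windows were long in a few of them. The longest had no site of either cell type for 290 kb on chromosome 8, from 73488486 to 73778361, in a window that still held 63 ES and 56 MEF peaks and a median site spacing of 4.70 kb. On chromosome 7 the window from 19000001 had a gap of 217 kb, and on chromosome 6 that from 124000001 had a gap of 184.3 kb. The chromosome 6 window also had the highest shared percentage of MEF peaks, 24 of 44 (54.5%, 40.07 to 68.3).

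Median score ranks differed between dense windows. On chromosome 2 from 152000001 to 153000000 the median ES peak ranked at 72.9% of its list and the median MEF peak at 54.5%. On chromosome 11 from 97000001 to 98000000 the values were 33.1% and 52.1%. On chromosome 8 from 125000001 to 126000000 the median MEF peak ranked at 70.9%, the highest of the 101 windows, and the median ES peak at 56.3%. These windows were chosen as extremes after their values were seen.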
